A study of Mus musculus with 2 samples.

Results

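The primary cilium genes described here are a list of 38 mouse genes taken by symbol: 11 subunits of the intraflagellar transport complex IFT-B, 3 subunits of IFT-A, 7 subunits of the BBSome, 2 chaperonin-like genes that help to assemble it (Bbs10 and Bbs12), 12 genes of the ciliary transition zone, and Arl13b, Inpp5e and Sufu, which act at the ciliary membrane or in Hedgehog signalling. They were looked up among the 55536 genes of the GENCODE M21 gene tables, and all 38 were present in both tables. Polyadenylated RNA was measured in hindbrain tissue of B6NCrl mouse embryos at embryonic day 12.5. The embryos were healthy and of mixed sex. There was 1 group with 2 biological replicates, pool 1 from 120 embryos and pool 2 from 88 embryos, so each value is an average over many animals. Genes took 31469575 expected counts in pool 1 and 29261472 in pool 2, and each member had between 185.5 and 2301 counts as the mean of the pools. No second condition exists in the series and the pools are the only replicates, so no test of a difference was possible. All ratios between pools are descriptions of replicate spread.

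A primary cilium is a single antenna-like projection built on a centriole, which most dividing neural progenitors extend into the ventricle. IFT-B carries cargo from the base to the tip with kinesin-2, IFT-A returns it with cytoplasmic dynein 2 and admits membrane proteins, and the BBSome rides on these trains and removes signalling receptors from the cilium. The transition zone is a gate of protein links between the basal body and the cilium. In vertebrates Hedgehog signals are read through the cilium, and inherited loss of many transition zone or ciliary membrane proteins gives Joubert syndrome in humans, whose hallmark is a malformed cerebellar vermis and brainstem. The cerebellum and brainstem arise from the hindbrain.

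The dissected tissue carried the markers of its label. The 4 hindbrain genes at 1 TPM or more in both pools, of 5 listed, included Hoxb2 at 45.1 TPM (pool 1) and 56.7 TPM (pool 2) and Hoxa2 at 40.4 TPM (pool 1) and 53.8 TPM (pool 2), while the forebrain genes Six3 (0.35 TPM in pool 1 and 0.52 TPM in pool 2) and Emx1 (0.21 TPM in pool 1 and 0.07 TPM in pool 2) were low. TPM is a level per transcript length, scaled to the same library total in both pools. The pools differed in other tissues: all 4 skeletal muscle genes were lower in pool 1, with a summed level of 20.8 TPM in pool 1 and 108.7 TPM in pool 2, and all 4 mesenchyme genes were lower in pool 1, with 942.6 TPM in pool 1 and 1252.1 TPM in pool 2. Spike-in RNA took 3.31% of all counts in pool 1 and 4.25% in pool 2. In bulk tissue, fewer cells of a type and less RNA per cell cannot be told apart.

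Every one of the 38 cilium genes was expressed, at 1 TPM or more in both pools. The background was 29% of all genes and 61.8% of protein-coding genes. The members spanned from 4.15 ± 0.354 TPM for Bbs12 to 121 ± 3.82 TPM for Ift46 (mean ± SD, n = 2 pools). Their median level was 20.3 TPM in pool 1 and 19.8 TPM in pool 2, and 17 of 38 lay above 21.8 TPM, the median of the 13619 protein-coding genes at 1 TPM or more. By class, the median was 39.4 TPM for IFT-B, 25.7 TPM for the membrane and Hedgehog genes, 23.1 TPM for IFT-A, 17.6 TPM for the BBSome, 14.8 TPM for the transition zone and 4.62 TPM for the chaperonin-like pair. The classes overlapped gene by gene: the lowest IFT-B gene was at 13.1 TPM and the highest transition zone gene at 40.8 TPM.

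**Figure D1:**
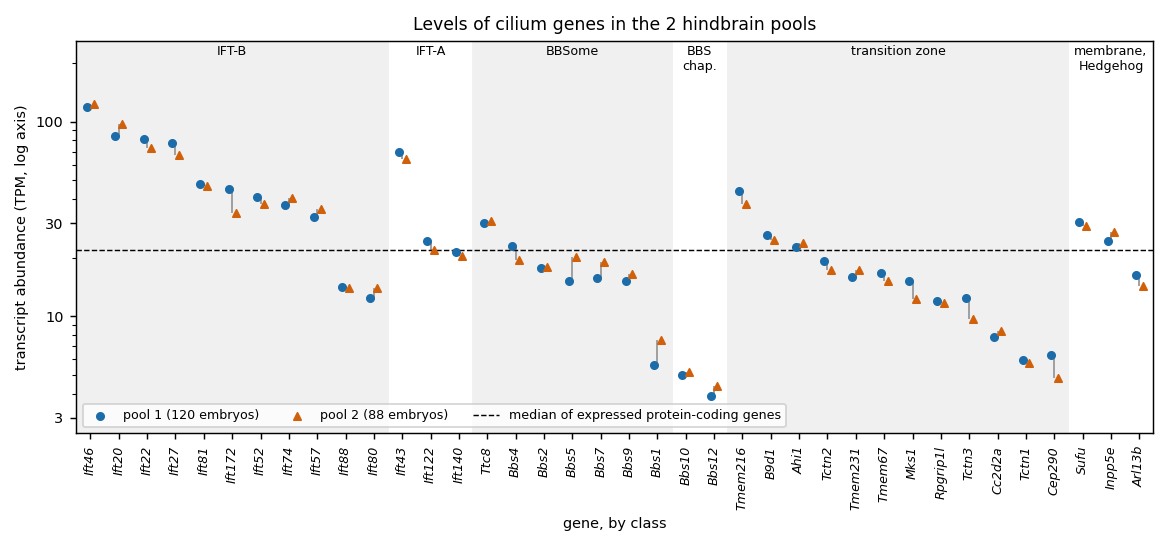
Transcript abundance in TPM (log axis) of each of the 38 cilium genes, grouped by class and ordered by level, with a circle for pool 1 and a triangle for pool 2. The dashed line is the median of expressed protein-coding genes (21.8 TPM), and 9 of the 11 IFT-B genes lie above it in both pools.

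Among IFT-B genes, the highest was Ift46, a subunit of the IFT-B core on chr9:44767908-44793447 (mm10, GENCODE M21), with 118 TPM in pool 1 and 124 TPM in pool 2. Ift20, which also sits on the Golgi apparatus in mammalian cells, had 83.8 TPM (pool 1) and 97.2 TPM (pool 2). The small GTPases of the complex were next, Ift22 with 81.7 TPM in pool 1 and 72.9 TPM in pool 2 and Ift27, which links the trains to BBSome cargo, with 77.3 TPM in pool 1 and 67.4 TPM in pool 2. These 4 genes stood above the other 7 in both pools. Of the tubulin-binding pair, Ift81 had 48.0 TPM in pool 1 and 46.5 TPM in pool 2, and Ift74 had 37.1 TPM in pool 1 and 40.6 TPM in pool 2.

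Ift52, another core subunit, had 40.8 TPM in pool 1 and 37.5 TPM in pool 2. Of the peripheral subunits, Ift172 had 44.8 TPM in pool 1 and 34.1 TPM in pool 2, and Ift57 had 32.2 TPM in pool 1 and 35.7 TPM in pool 2. Ift88, the gene mutated in the classical polycystic kidney mouse, had 14.1 TPM (pool 1) and 13.9 TPM (pool 2). The lowest IFT-B gene, Ift80 on chr3:68892499-69004570, had 12.3 TPM (pool 1) and 13.9 TPM (pool 2). The spread of levels within the complex was 9.21-fold, wider than any difference between the pools.

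Within IFT-A the small subunit Ift43 stood apart, with 69.8 TPM (pool 1) and 64.0 TPM (pool 2). The larger core subunits were close to each other. Ift122 had 24.4 TPM in pool 1 and 21.8 TPM in pool 2, and Ift140, the lowest, had 21.4 TPM (pool 1) and 20.5 TPM (pool 2). The ranges of Ift122 and Ift140 over the pools did not overlap, but the gap between them was smaller than the difference of Ift122 between the pools.

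The BBSome genes lay close together except at the ends. Ttc8, also known as BBS8, was the highest at 30.2 TPM (pool 1) and 30.9 TPM (pool 2), and Bbs4 had 22.9 TPM in pool 1 and 19.5 TPM in pool 2. Bbs2 had 17.7 TPM in pool 1 and 17.99 TPM in pool 2, and Bbs9 had 15.1 TPM in pool 1 and 16.5 TPM in pool 2. Bbs7 had 15.7 TPM in pool 1 and 18.9 TPM in pool 2, and Bbs5, a lipid-binding subunit, had 15.2 TPM (pool 1) and 20.2 TPM (pool 2). The ranges of Bbs2, Bbs5 and Bbs7 over the pools overlapped, so their order cannot be read. Bbs1, on chr19:4886878-4906628, which contacts the recruiting GTPase Arl6, was the lowest with 5.59 TPM (pool 1) and 7.53 TPM (pool 2). Of the chaperonin-like genes, Bbs10 had 5.00 TPM in pool 1 and 5.18 TPM in pool 2, and Bbs12 had 3.90 TPM in pool 1 and 4.40 TPM in pool 2. Both were below Bbs1 with M21, but the order turned with the older annotation M4, where the means were 3.60 TPM for Bbs1, 5.32 TPM for Bbs10 and 4.37 TPM for Bbs12. It also turned when counts were divided by the longest transcript, with 5.52 for Bbs1, 6.87 for Bbs10 and 6.17 for Bbs12.

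Tmem216 was the highest transition zone gene, and Cep290 and Tctn1 were the lowest. Tmem216, a membrane protein of the Meckel syndrome (MKS) module on chr19:10533865-10556238, had 43.8 TPM in pool 1 and 37.7 TPM in pool 2. Cep290, a long coiled-coil protein that ties microtubules to the membrane, on chr10:100487558-100574840, had 6.29 TPM (pool 1) and 4.83 TPM (pool 2). The B9-domain protein B9d1 was second with 26.2 TPM in pool 1 and 24.5 TPM in pool 2, and its B9-domain partner Mks1 had 15.1 TPM in pool 1 and 12.2 TPM in pool 2. Ahi1, the jouberin gene, had 22.8 TPM in pool 1 and 23.7 TPM in pool 2.

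Among the 3 tectonics, a family of membrane-associated gate proteins, no level was shared. Tctn2 had 19.2 TPM in pool 1 and 17.2 TPM in pool 2, Tctn3 had 12.4 TPM in pool 1 and 9.63 TPM in pool 2, and Tctn1 had 5.94 TPM (pool 1) and 5.75 TPM (pool 2). Cep290 had the lower mean, 5.56 TPM against 5.84 TPM for Tctn1, but the ranges of both over the pools overlapped. Per longest transcript Tctn1 was the lower, with 3.04 against 6.28 for Cep290. The membrane proteins Tmem231 (15.8 TPM in pool 1 and 17.2 TPM in pool 2) and Tmem67, or meckelin (16.6 TPM in pool 1 and 15.2 TPM in pool 2), had overlapping ranges. Rpgrip1l, a scaffold of the gate, had 12.02 TPM in pool 1 and 11.7 TPM in pool 2, and the coiled-coil and C2-domain gene Cc2d2a had 7.81 TPM in pool 1 and 8.36 TPM in pool 2.

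At the ciliary membrane, the GTPase gene Arl13b had 16.2 TPM in pool 1 and 14.3 TPM in pool 2. Inpp5e, the phosphoinositide phosphatase that Arl13b brings into the cilium, had 24.3 TPM in pool 1 and 27.2 TPM in pool 2. Sufu, which restrains the Gli transcription factors, had 30.5 TPM in pool 1 and 28.9 TPM in pool 2. It was the highest of the 3 and the gene with the most counts of all members, 2474 in pool 1 and 2128 in pool 2.

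Members with longer transcripts tended to have lower TPM. Across the 38 members, Spearman's rho between mean TPM and effective length was -0.56, against -0.23 across 13619 expressed protein-coding genes; the points share the libraries and the length enters TPM as its divisor. The same rho with the counts in place of TPM was 0.13 for the members and 0.18 for expressed protein-coding genes. These correlations are across genes, which are not replicates.

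The level of a gene in these tables rests on which of its transcripts the reads were assigned to, and for several cilium genes that choice carried much weight. Each member had 2 or more annotated transcripts. The most abundant one held under 60% of the gene's TPM in 17 of 38 members, against 42.2% of expressed protein-coding genes with 2 or more transcripts, a share near the background. The most abundant transcript differed between the pools in 3 of 38 members (Ift46, Tctn1 and Tmem216), against 9.65% of those genes.

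Ift46 shows how a short transcript enters the level. Ift46-209, of 229 bases, held 36.5% of the TPM in pool 1 and 39.0% in pool 2 but only 6.82% of the counts in pool 1 and 7.50% in pool 2. The 1317-base Ift46-202 held 64.6% of the counts in pool 1 and 62.1% in pool 2. With the counts divided by the length of the longest transcript of every gene and rescaled to the TPM total, Ift46 had a level of 29.6 in pool 1 and 30.9 in pool 2, and Ift22 of 29.99 in pool 1 and 29.6 in pool 2. On that scale Ift20 and Ift43 led the members, with means of 107 and 91.4. For Ift46, Ift22 and Rpgrip1l the most abundant transcript by TPM was not the one with the most counts, 3 of 38 members against 12.3% of the background genes. In Rpgrip1l the 278-base Rpgrip1l-205 held 51.4% of the TPM in pool 1 and 46.8% in pool 2, while the 7009-base Rpgrip1l-201 held 92.5% of the counts in pool 1 and 89.0% in pool 2.

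Transcripts annotated as retaining an intron held a median of 7.59% of the TPM of a member, against 2.97% for expressed protein-coding genes with 2 or more transcripts. Ift172 was at the top with 54.8% of its TPM, but these transcripts held 13.0% of its counts, and the 5403-base coding transcript Ift172-201 held 84.0% of the counts in pool 1 and 89.0% in pool 2. In Tctn1 retained-intron transcripts held 47.1% of the TPM, in Bbs1 44.9% and in Mks1 42.9%. Their part of the counts was lower, 28.0% in Tctn1, 17.2% in Bbs1 and 28.9% in Mks1. Ift20, a compact gene, had 27.2% of its TPM in such transcripts in pool 1 and 23.0% in pool 2. Their part of the Ift20 counts was higher, a mean of 30.7%.

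Of the 38 members, 2 had a most abundant transcript that is not annotated as protein coding, against 9.67% of the background genes. In Tctn1 it was Tctn1-203, a target of nonsense-mediated decay, with 40.7% of the TPM in pool 1 and 37.0% in pool 2, where the retained-intron transcript Tctn1-202 held 39.7%. The coding transcript Tctn1-201, of 5717 bases, held 11.6% of the TPM and 32.8% of the counts in pool 1, and 9.22% of the TPM and 26.6% of the counts in pool 2. M21 classes the whole Tctn2 gene as a processed transcript and gives it no coding isoform. Tctn2-207, of 2733 bases, held 77.2% of its TPM in pool 1 and 85.0% in pool 2, so the non-coding label is a property of the annotation. In Tmem216 the 2 main coding transcripts changed places: Tmem216-206 held 44.4% of the TPM in pool 1 and 25.4% in pool 2, and Tmem216-202 held 41.0% in pool 1 and 48.4% in pool 2.

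**Figure D2:**
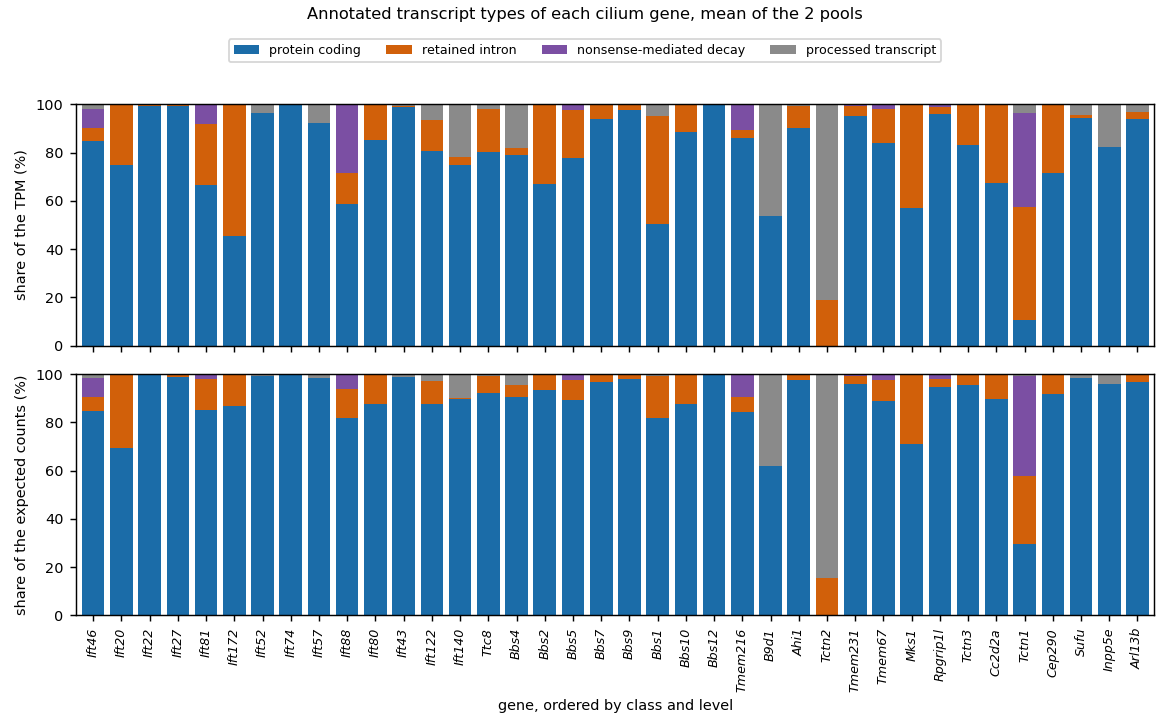
Share of each cilium gene in annotated transcript types, mean of the 2 pools, as a percent of the gene's TPM (upper panel) and of its expected counts (lower panel), with genes ordered by class and level. Retained-intron transcripts of Ift172 take 54.8% of the bar above and 13.0% below, and Tctn2 has no protein-coding part.

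Some members with a divided output were coding almost throughout. Bbs9-201 held 36.0% of the TPM of Bbs9 in pool 1 and 34.4% in pool 2, although 97.6% of the TPM of the gene was protein coding. Ift22-201 held 37.9% of Ift22 in pool 1 and 42.1% in pool 2, with 99.2% of the gene protein coding. In others a non-coding part stood beside the leading transcript. Ift20-203 held 41.3% of Ift20 in pool 1 and 39.9% in pool 2, beside its retained-intron transcripts. Ift122-203 held 42.6% of Ift122 in pool 1 and 51.7% in pool 2, and retained-intron transcripts a mean of 12.6%. At the other end Bbs12-201 held all of the TPM of Bbs12 in both pools.

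The remaining genes under the limit of 60% were Ift81 (Ift81-201, 42.1% in pool 1 and 46.1% in pool 2), Ift88 (Ift88-201, 57.0% in pool 1 and 60.4% in pool 2), Bbs5 (Bbs5-201, 57.0% in pool 1 and 46.1% in pool 2), Cc2d2a (Cc2d2a-201, 42.2% in pool 1 and 44.6% in pool 2), B9d1 (B9d1-201, 64.1% in pool 1 and 43.3% in pool 2) and Arl13b (Arl13b-201, 53.7% in pool 1 and 60.3% in pool 2). Non-coding transcript types held a large part of several: retained-intron transcripts took a mean of 32.8% of the TPM of Cc2d2a and 25.2% of Ift81, nonsense-mediated decay targets 28.4% of Ift88, and processed transcripts 46.3% of B9d1. Counted by reads rather than by TPM, the leading transcript held under 60% in 6 of 38 members. The share of all genes by reads was not counted, so this number has no background.

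No cilium gene differed between the pools by a ratio of 5 to 4 or more, 0.32 on the log2 scale, when counts were scaled to each other by TMM, the trimmed mean of M-values. That was 0 of 38 members, against 11.5% of the 14989 genes with 50 or more mean counts (5.6% higher and 5.88% lower in pool 1) and 7.18% of the genes within the members' range of counts. The log2 ratio of pool 1 over pool 2 ran from -0.25 to 0.29, with 19 members higher and 19 lower in pool 1. Of the 14989 genes, 7283 were higher and 7706 lower. The median was -0.01 for the members and -0.00418 for all genes. The 95% counting interval of the ratio, an exact binomial interval for counting error only, left out equal levels in 17 of 38 members (9 higher and 8 lower in pool 1), against 35.1% of all genes and 32% of those within the members' range of counts.

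Tctn3 had the largest ratio, with 544 counts in pool 1 and 413 in pool 2 and a log2 ratio of 0.29 (interval 0.10 to 0.48). B9d1 followed with 340 counts in pool 1 and 264 in pool 2, a log2 ratio of 0.26 (0.02 to 0.49). Cc2d2a was the member most reduced in pool 1, with 556 counts in pool 1 and 612 in pool 2, a log2 ratio of -0.25 (-0.42 to -0.08). Bbs5 came next with 306 counts in pool 1 and 331 in pool 2, a log2 ratio of -0.22 (-0.45 to 0.01), whose interval held equal levels.

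By class, the median log2 ratio was 0.13 for the transition zone, with 8 of 12 genes higher in pool 1, and 0.11 for IFT-A, with 3 of 3 higher. It was -0.09 for the BBSome, with 5 of 7 genes lower in pool 1, -0.11 for the chaperonin-like pair, with 2 of 2 lower, and -0.04 for IFT-B, with 7 of 11 lower. Membrane and Hedgehog genes had a median of 0.10, with 2 of 3 higher in pool 1. Both directions were present in 4 of these 6 classes, and no test was made of their difference. Of the 14989 genes with 50 or more mean counts, 7283 were higher and 7706 lower in pool 1. With counts scaled to the spike-ins instead, all 38 members were higher in pool 1 and the class medians below 0 turned positive (IFT-B 0.34, BBSome 0.29, chaperonin-like 0.26), beside a median of 0.37 for all genes. The share of all genes higher in pool 1 with spike-in scaling was not counted. Several marker lists shifted more than the cilium classes under TMM. The median log2 ratio was -2.41 for skeletal muscle, -0.40 for hindbrain identity, -0.36 for mesenchyme, -0.21 for choroid plexus and 0.29 for erythroid genes. Of the forebrain genes 2 had enough counts, 1 higher and 1 lower in pool 1, with a median of 0.69. The part of these shifts in the members' ratios was not tested.

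**Figure D3:**
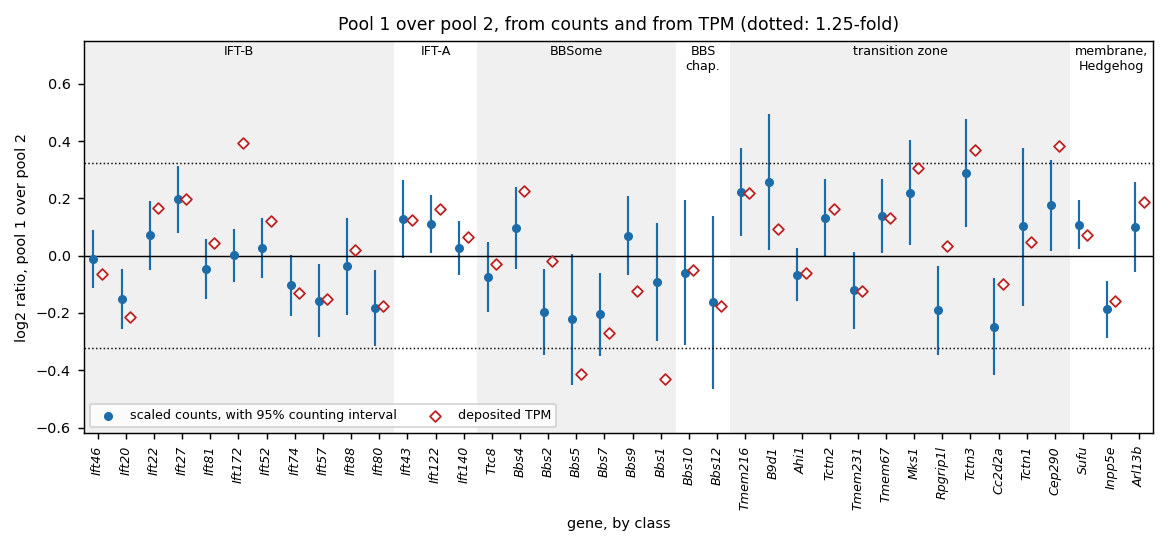
Log2 ratio of pool 1 over pool 2 for each cilium gene, from TMM-scaled counts (filled circles, bars are 95% counting intervals) and from deposited TPM (open diamonds); dotted lines mark the limit of 0.32 in each direction. All filled circles lie between the dotted lines, and the diamonds of Ift172, Bbs1, Bbs5, Cep290 and Tctn3 lie beyond them.

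Read from TPM, 5 of 38 members passed the same limit, against 13.8% of all genes. Ift172 was 1.31-fold higher in pool 1 by TPM, while its scaled counts had a ratio of 1.00 and its effective length, which the transcript mix sets, was 2172 bases in pool 1 and 2868 bases in pool 2. Bbs1 was at 0.742-fold by TPM and 0.939-fold by scaled counts, with an effective length of 3530 bases in pool 1 and 2807 bases in pool 2. Bbs5 was at 0.752-fold by TPM and 0.857-fold by counts, Cep290 at 1.30-fold by TPM and 1.13-fold by counts, and Tctn3 at 1.29-fold by TPM and 1.22-fold by counts. For Ift172 and Bbs1 the pools differed in the transcripts to which reads were assigned more than in the number of reads.

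The same reads were also quantified by the depositors against an older annotation, GENCODE M4. With M21 over M4, 27 of 38 members had a TPM fold between 0.9 and 1.1. The share of all genes in that span was not counted. The median fold over 15193 genes was 0.952. By the ratio of 5 to 4, M21 was above M4 for 6 members, against 9.3% of all genes, and below M4 for 2 members, against 2.5%. Ift172 changed most: it had 44.8 TPM in pool 1 and 34.1 TPM in pool 2 with M21, against 18.8 TPM in pool 1 and 19.0 TPM in pool 2 with M4, a fold of 2.08, while its counts had a fold of 1.02 and its effective length a fold of 0.475.

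Bbs1 had a TPM fold of 1.82 with a count fold of 1.09 and an effective length fold of 0.578. Cep290, with a TPM fold of 1.50, gained counts as well, 1.23-fold, and Rpgrip1l had a TPM fold of 1.48 with a count fold of 1.02. Arl13b had a TPM fold of 1.34 with a count fold of 1.00, and Ift22 a TPM fold of 1.27 with a count fold of 1.27. Below M4 were Ift57, with a TPM fold of 0.739, and Cc2d2a, with 0.767, both with a count fold of 1.00. In 5 of these 8 genes (Ift172, Rpgrip1l, Arl13b, Ift57 and Cc2d2a) the count fold lay between 1.00 and 1.02, so the TPM moved with the effective length.

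**Figure D4:**
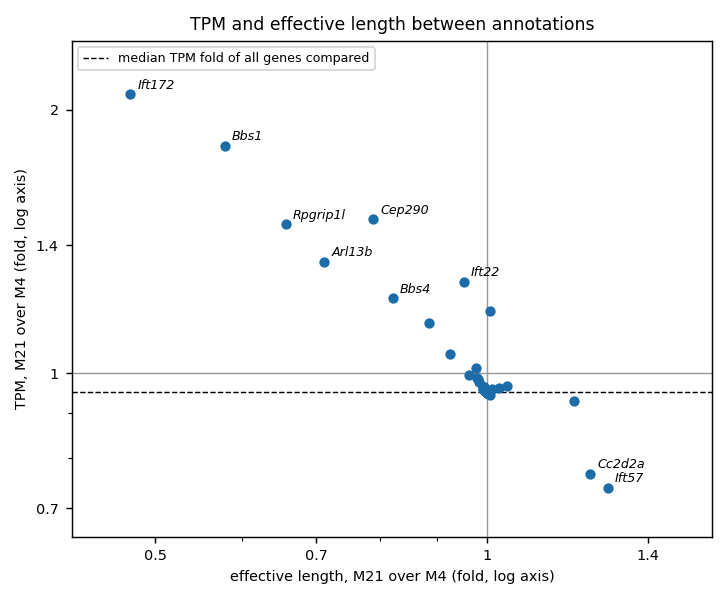
TPM fold against effective length fold of M21 over M4 for the 38 cilium genes (both log axes, means of the 2 pools); the dashed line is the median TPM fold of all genes compared (0.952). Ift172 and Bbs1 lie at the upper left with short M21 lengths, Ift57 and Cc2d2a at the lower right.

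Regulatory factor X (RFX) proteins bind a palindromic promoter element, the X-box, and switch on many ciliary genes in animals. The motif searched was GTTNCC, any 2 bases and GGNAAC, which reads the same on both strands, with up to 2 mismatches among its 10 fixed letters. The windows were the RefSeq promoters (GRCm38.p6, the same assembly as mm10) from 250 bases before to 50 bases after each start. A window was found for 34 of 38 members; Ift80, Ift81, Ift122 and Tmem67 had none in the table. An exact match was present in 4 of 34 (11.8%), against 0.529% of 27025 genes with a window. The share with 1 mismatch or fewer was 35.3% (12 of 34), against 2.89%, and with 2 or fewer 50% (17 of 34), against 15.8%. Among expressed protein-coding genes the shares were 0.613%, 3.74% and 17.9%.

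Transition zone genes held most of the close matches. With 1 mismatch or fewer there were 7 of 11 transition zone genes, 3 of 7 BBSome genes and 2 of 9 IFT-B genes, and none of the 2 IFT-A, 2 chaperonin-like and 3 membrane or Hedgehog genes with a window. The sequences below are those of the 7 transition zone genes and of Bbs7, the BBSome gene with an exact match, 5′ to 3′ on the gene's strand. Capitals mark the 14 positions of the motif. Lower-case letters are up to 8 flanking bases on each side.
Ahi1, chr10:20952560-20952589, plus strand, exact: tagtctgaGTTACCTAGGCAACagcggcag
Mks1, chr11:87853183-87853212, plus strand, exact: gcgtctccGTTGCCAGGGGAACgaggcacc
Tctn1, chr5:122264411-122264432, minus strand, exact: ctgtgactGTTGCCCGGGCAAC
Bbs7, chr3:36613489-36613518, minus strand, exact: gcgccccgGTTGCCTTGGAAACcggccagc
B9d1, chr11:61505130-61505159, plus strand, 1 mismatch: taccgtctGTTTCCAAGACAACcgagagcc
Tctn2, chr5:124598679-124598708, plus strand, 1 mismatch: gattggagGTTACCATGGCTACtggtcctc
Tmem216, chr19:10555723-10555752, minus strand, 1 mismatch: tgtacgcaGTTTCCATGGGGACtgaacatg
Tmem231, chr8:111933781-111933810, minus strand, 1 mismatch: cgccgtcgGTTGCCGTGGAGACtcggcgct

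In each window only 1 match was kept, the first with the fewest mismatches. Measured from the RefSeq start, the centres of the kept matches with up to 2 mismatches lay between 174 bases before and 43 bases after it. Their median was 18.5 bases before the start. B9d1 had the centre of its motif within 1 base of the start, Mks1 17 bases before it and Tctn2 55 bases before it, while the motif of Ahi1 was 28 bases and that of Tctn1 43 bases after it. Levels with and without a close match were alike in the median, with no test made. The 12 members with 1 mismatch or fewer had a median of 19.7 TPM and the other 22 with a window 19.4 TPM, and genes with an exact match ranged from 5.84 TPM for Tctn1 to 23.2 TPM for Ahi1. A match describes letters in a window and does not show that a factor bound there.

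**Figure D5:**
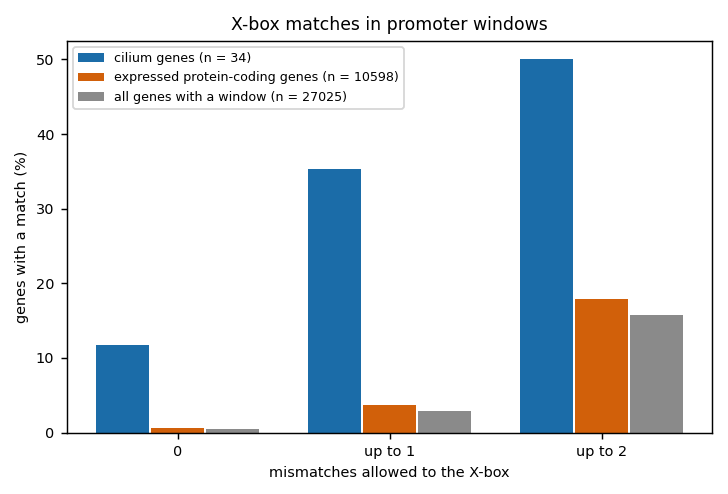
Percent of genes with an X-box match in the 300-base promoter window at 0, up to 1 and up to 2 mismatches, for the 34 cilium genes with a window, for expressed protein-coding genes and for all genes with a window. At 1 mismatch or fewer the shares are 35.3%, 3.74% and 2.89%.

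A head-to-head protein-coding start within 1000 bases was present for 8 of 38 members, against 9.72% of expressed protein-coding genes. Ift20 and Tnfaip1 started 29 bases apart, Ift46 and Arcn1, a coatomer subunit gene, 63 bases, and Ift122 and the DNA repair gene Mbd4 99 bases. Ift80 lay 168 bases from Smc4, a condensin subunit gene, which had 101 TPM in both pools while Ift80 had 12.3 TPM in pool 1 and 13.9 TPM in pool 2. Rpgrip1l lay 263 bases from Fto, at 90.2 TPM (pool 1) and 91.4 TPM (pool 2). The levels on the 2 sides of these pairs thus differed several-fold in some and little in others, such as Ift46 with 118 TPM in pool 1 and 124 TPM in pool 2 beside Arcn1 with 139 TPM in pool 1 and 149 TPM in pool 2.

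Exons of 9 of 38 members overlapped another gene. The share over all genes was not counted, so this number has no background. In 7 of the 9 members the other gene was at 1 TPM or more. They were Bbs4 with Adpgk, Bbs12 with Cetn4, Cep290 with 4930430F08Rik, Tmem67 with Rbm12b2, Tctn1 with Hvcn1, Tmem216 with Cpsf7 and Inpp5e with Pmpca, all on opposite strands. Strand use in the counting was not given in the sources used here, and reads in these stretches cannot be told apart. The longest shared stretch was 1574 bases, for Tctn1 and Hvcn1. The deposited posterior SD of the count was 0 in both pools for 31 of 38 members and at most 2.90% of the count, in Tctn1. The share over all genes was not counted. This score concerns the count of the gene and not the split of its reads over transcripts.

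The wider ciliary machinery was present as well. Of other IFT subunits, 10 of 11 reached 1 TPM in both pools, led by Hspb11 (33.1 TPM in pool 1 and 34.0 TPM in pool 2) and Cluap1 (23.4 TPM, pool 1, and 23.9 TPM, pool 2). The exception was Ttc30a2, one of near-identical paralogs whose reads may be shared, with 0.90 TPM in pool 1 and 0.58 TPM in pool 2. All 12 motor genes reached 1 TPM, with the light chain genes Dynll1 (1071 TPM in pool 1 and 994 TPM in pool 2) and Dynlrb1 (349.6 TPM in pool 1 and 337 TPM in pool 2), which also serve cytoplasmic dynein, at the top.

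All 7 other Bardet-Biedl genes, all 26 other transition zone, inversin and Joubert genes and all 16 basal body and ciliogenesis genes reached 1 TPM in both pools. Bbip1, the smallest BBSome subunit, had 87.2 TPM in pool 1 and 91.1 TPM in pool 2, and the ubiquitin ligase gene Trim32 had 66.7 TPM in pool 1 and 70.7 TPM in pool 2. Bbip1 depended on the annotation, with a TPM fold of 3.10 for M21 over M4. Arl3, the small GTPase that releases lipid-bound cargo inside the cilium and lies 42292 bases from Sufu, had 152 TPM in pool 1 and 146 TPM in pool 2, and Pde6d, the carrier it acts on, had 72.5 TPM in pool 1 and 76.8 TPM in pool 2. Rab11a had 230.2 TPM in pool 1 and 236 TPM in pool 2 and Rab8a 89.2 TPM in pool 1 and 84.8 TPM in pool 2; both GTPases bring membrane to the growing cilium and act in other membrane traffic. The 12 transition zone members had a median of 14.8 TPM and the 26 other transition zone, inversin and Joubert genes one of 20.2 TPM, a difference that was not tested.

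The Hedgehog transducers that work through the cilium all reached 1 TPM, 9 of 9, with Smo at 38.2 TPM (pool 1) and 41.5 TPM (pool 2) and Gli3 at 20.0 TPM (pool 1) and 20.6 TPM (pool 2). Sufu, at 30.5 TPM (pool 1) and 28.9 TPM (pool 2), lay between them. Of 10 RFX and Foxj1 regulators, 9 reached 1 TPM in both pools; Rfx4 had 38.1 TPM in pool 1 and 31.4 TPM in pool 2, Rfx3 had 22.1 TPM in pool 1 and 22.5 TPM in pool 2, and Gmnc, a regulator of multiciliated cells, had 0.42 TPM in pool 1 and 0.70 TPM in pool 2. Also in this list, and named after their values were seen, were Foxj1, the main regulator of motile cilia, with 21.1 TPM in pool 1 and 21.7 TPM in pool 2, and Mcidas, another regulator of multiciliated cells, which was above 1 TPM in both pools. Genes of motile cilia had a median of 3.30 TPM in pool 1 and 3.49 TPM in pool 2, and 12 of 16 reached 1 TPM in both pools. The highest were Dynlrb2 with 14.2 TPM in pool 1 and 18.1 TPM in pool 2 and Rsph9 with 16.6 TPM in pool 1 and 15.6 TPM in pool 2, whose order differed between the pools, while the axonemal dynein heavy chain genes Dnah5 (0.10 TPM in pool 1 and 0.13 TPM in pool 2) and Dnah11 (0.21 TPM in pool 1 and 0.33 TPM in pool 2) were near 0. Another gene of that kind, Dnah9, named after its values were seen, had 2.34 TPM in pool 1 and 2.09 TPM in pool 2.

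With 1 mismatch or fewer, an X-box was present in 7 of 21 other transition zone, inversin and Joubert genes with a window. It was present in 2 of 10 other IFT subunits, 4 of 14 motile cilia genes and none of 6 other Bardet-Biedl genes. It was also present in 1 of 11 ciliary motor genes and 2 of 15 basal body and ciliogenesis genes. It was absent from all 8 Hedgehog transducers and all 9 RFX and Foxj1 regulators with a window. Among the tissue marker lists it was present in 1 of 4 skeletal muscle genes and 1 of 3 forebrain genes with a window, the forebrain match being exact. It was present in none of 7 radial glia, 4 neuronal, 3 cycling-cell, 3 erythroid, 2 mesenchyme, 2 choroid plexus and 3 hindbrain identity genes. The lists are short and were not tested against each other.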

How the data were processed

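PolyA+ RNA-seq libraries were made from 10 ng of RNA with oligo-dT priming, Nextera tagmentation and ERCC spike-ins, per the labels' protocols; amplification from so little RNA can affect long transcripts, and no molecular identifiers are mentioned. The authors deposited gene and transcript tables on mm10 for GENCODE M21 (used here) and M4. The deposited expected counts are estimated reads that need not be whole. Deposited TPM values are per effective length and scaled to a fixed total over all entries, so spike-ins (and 26248 tRNA entries) enter the total, and deposited FPKM values are per kilobase and library total. The posterior SD is a deposited score of the count's uncertainty. The quantification program was not given in the sources used here.

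Symbols matched 55450 of 55536 M21 identifiers; all 186 list genes matched, 3 by a RefSeq synonym. The members and the lists were chosen with earlier results of these data known. Counts were rounded to whole numbers, scaled with edgeR 4.0.16 (TMM) and compared as log2 of pool 1 over pool 2 with a prior count of 0.5, for genes with 50 or more mean counts. Intervals are Clopper-Pearson at 95% and cover counting error only. Isoform shares are transcript TPM (or counts) over the gene's sum, averaged over the pools. Totals, spike-ins included, were 32547454 in pool 1 and 30559015 in pool 2. Named in full were the highest and lowest member of each class, the 4 largest pool ratios, the 4 largest annotation folds, the members with a divided or changing top transcript, and of other lists the 2 highest and up to 2 under 1 TPM. The ratio and motif steps were tested on simulated data. Size factors came from DESeq2 1.42.0 under R 4.3.3; tables and figures were made in Python 3.11.15 with matplotlib 3.10.9, scipy 1.17.1, numpy 2.4.6 and pandas 2.3.3.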

Additional observations from a re-analysis of the deposited data

How the results depend on the processing

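All 38 cilium genes stayed at 1 TPM or more with M4, with TPM over genes alone and in either pool alone, and 36 reached 5 TPM. Spike-in scaling put the median log2 ratio at 0.37 for the members and 0.37 for all genes. It then put 22 members past the 5 to 4 ratio, all higher in pool 1, against 64.4% of all genes, and gave class medians of 0.34 (IFT-B), 0.49 (IFT-A), 0.29 (BBSome), 0.26 (chaperonin-like), 0.51 (transition zone) and 0.48 (membrane and Hedgehog). By TPM, an alternative chosen after seeing the data, 5 members passed. DESeq2, total counts, M4, a prior count of 5 and no count filter left the count at 0.

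Class medians in the order IFT-B, IFT-A, BBSome, chaperonin-like, transition zone, membrane and Hedgehog were 24.0, 14.0, 10.7, 2.81, 9.00 and 15.6 in FPKM; 43.3, 25.4, 19.5, 5.09, 16.3 and 28.4 as TPM over genes alone; and 48.6, 28.5, 21.8, 5.71, 18.2 and 31.8 over protein-coding genes alone. They were 31.1, 29.0, 19.0, 6.52, 18.1 and 31.8 per longest transcript, chosen after seeing the data, where IFT-B no longer led. With M4 the IFT-B median was 45.9. Leaving out a pool gave 40.6 to 44.8 for IFT-B. Per longest transcript, 4 of 38 members were lower by 1.5-fold or more. The top isoform held under 60% in 13 members with M4, in 17 in pool 1 alone and in 14 in pool 2 alone. By counts it held under 60% in 6 members. It held under 50% of the TPM in 12 members. X-box matches numbered 12 with 1 mismatch and 4 with none.

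No paired analysis was possible because the series has 1 group. With 2 pools no spread can be tested, and the lowest member, Bbs12, rests on 182 counts in pool 1 and 189 in pool 2.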
